A study of Rattus norvegicus with 14 samples.

Results

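The amino acid transporter genes of the rat colon were taken as every gene of the solute carrier families Slc1, Slc3, Slc6, Slc7, Slc36, Slc38 and Slc43 in the expression table, matched by name, without the serotonin transporter gene Slc6a4. They came to 60 of 26319 genes, and all 60 passed the filter on low counts that kept 18678 genes. The name rule also takes in carriers whose main substrate is not a protein amino acid: Slc6a2 (noradrenaline), Slc6a3 (dopamine), Slc6a6 (taurine), Slc6a8 (creatine), Slc6a12 (betaine and GABA), Slc6a11 and Slc6a13 (GABA), and Slc43a3 (purine nucleobases).

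Total RNA depleted of ribosomal RNA was sequenced from 14 samples of distal colon of male Wistar rats, 72 h after treatment. The 6 inflamed libraries came from the lesions of rats given TNBS (trinitrobenzene sulphonic acid) into the colon, and the 6 uninflamed libraries came from non-adjacent, macroscopically normal colon of the same 6 rats (animals 218 to 223). The 2 control libraries came from random colon sections of 2 rats (animals 216 and 217) that the labels call vehicle-treated and the study's text calls untreated. TNBS lesions are patchy, and each library is bulk colon tissue in which many cell types are mixed.

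Amino acids cross cell membranes through families of carriers that differ in substrate and in what drives the transport. The heteromeric transporters pair a heavy chain (Slc3a2, also called 4F2hc or CD98, or Slc3a1) that brings the complex to the membrane with an Slc7 light chain that does the transport. Proliferating epithelium and activated leukocytes depend on such uptake for protein synthesis, for mTORC1 signalling, for glutathione and, through arginine, for nitric oxide and polyamines.

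The libraries held 6734968 to 13792657 reads in the inflamed group, 7813797 to 13234808 in the uninflamed group, and 12013023 and 12041314 in the controls. Levels are given as CPM, read counts scaled to the size of each library after TMM normalisation. The TMM factors, which multiply the library sizes, were 0.980 to 1.24 in inflamed libraries, 0.630 to 1.185 in uninflamed libraries, and 0.867 and 0.633 in controls. On this scale 3 reads came to between 0.182 and 0.478 CPM. Differences are log2 fold changes from edgeR's quasi-likelihood test with Benjamini-Hochberg adjustment over all 18678 genes, and a gene was called higher or lower at an adjusted p under 0.05 with at least a 2-fold change. Markers of several cell types differed between inflamed colon and the other groups. The summed level of 13 epithelial marker genes was 247.9 to 4596 CPM (median 1105) in inflamed libraries, 4294 to 8211 CPM (median 6113) in uninflamed libraries, and 8320 and 4361 CPM in controls, and 13 of 13 were lower in inflamed than in uninflamed colon. The summed level of 12 neutrophil markers was 417 to 2223 CPM in inflamed libraries, 17.4 to 37.3 CPM in uninflamed libraries, and 22.29 and 16 CPM in controls, and 10 of 12 were higher in inflamed than in uninflamed colon. Between uninflamed colon and controls, 0 of the 13 epithelial and 0 of the 12 neutrophil markers were called. Of the other marker lists, tested between inflamed and uninflamed colon, 4 of 8 fibroblast genes (median log2 fold change 1.02), 2 of 8 endothelial genes (median 0.78), 1 of 8 T cell genes (median 1.17) and 1 of 6 B cell genes (median 1.78) were higher, and 4 of 7 smooth muscle genes (median -1.20) and 2 of 6 mast cell genes (median -0.70) were lower. The part of these cell types in the levels of the transporter genes was not tested. In such bulk samples, fewer cells of a type and less RNA per cell cannot be told apart. The inflamed library of animal 221 had the highest epithelial sum of its group (4596 CPM) and the lowest neutrophil sum (417 CPM).

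Inflamed against uninflamed colon (I-UI) compares 2 pieces of the same TNBS-treated rats, but the main fit had no term for the animal. A fit with such a term is given further below. In I-UI, 10 of the 60 genes were higher (16.7%), where 6.15% of all genes tested were. Lower were 2 of 60 (3.33%), where 6.95% of all genes were. The I-UI change on the log2 scale was above 0 for 47 of 60 (78.3%), against 52.7% of all genes, with a median of 0.25 against 0.04 over all genes. All inflamed libraries lay above all uninflamed libraries for 6 of 60 genes (10%, against 4.32% of all genes), and below them for 0 of 60 (against 5.2%). The higher genes were the light chains Slc7a5, Slc7a6 and Slc7a11, the cationic carriers Slc7a2 and Slc7a3, Slc43a2, Slc1a3, Slc38a6, Slc6a2 and Slc6a3, and the lower ones were Slc6a8 and Slc7a4. For Slc6a3 and Slc7a3 the call rested on 1 library each, as described with these genes. Without animal 223 the count of higher genes was 6, where 4.51% of all genes were higher.

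**Figure D1:**
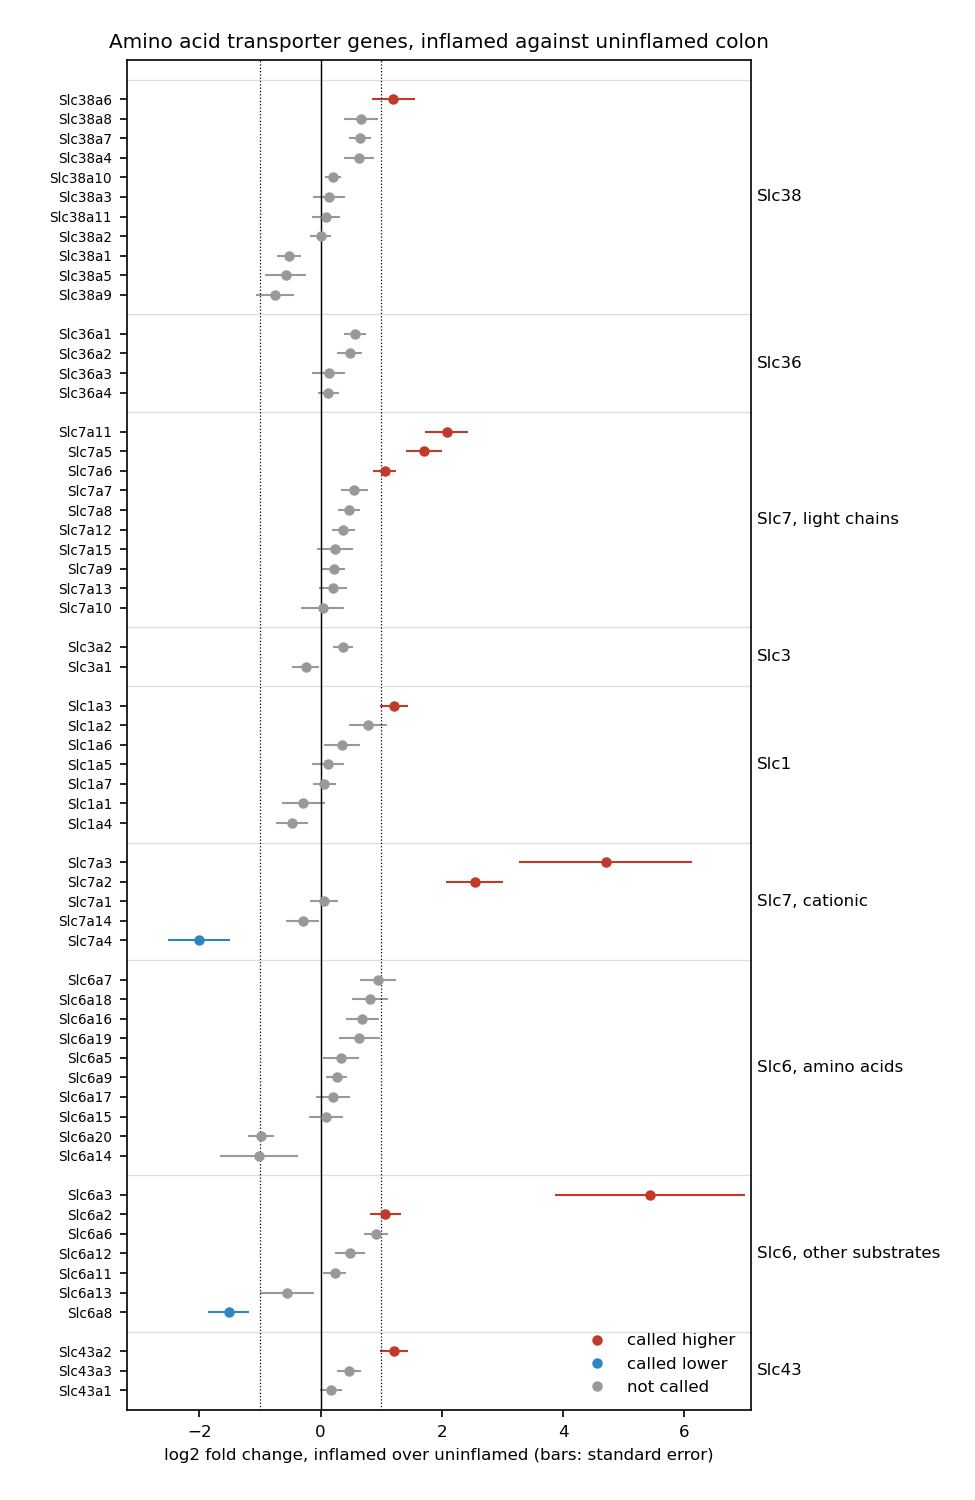
Log2 fold change of 59 of the 60 genes in inflamed over uninflamed colon (horizontal axis, bars are the standard error), by family (6 libraries a group). Dotted lines mark a 2-fold change in either direction. Red marks the 10 genes called higher and blue the 2 called lower, and the widest bars are those of Slc6a3 and Slc7a3.

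Slc7a5, Slc7a6, Slc7a11 and Slc43a2 carry large neutral or cationic amino acids, or cystine. Windows around their annotated starts are printed because these 4 genes were called higher together. Each window runs from 250 bases before to 50 bases after the RefSeq start of the gene (build GRCr8). Capitals mark matches, on either strand, to the motifs searched: the amino acid response element core TGATGNAA, the antioxidant response element core TGACNNNGC, the AP-1 element TGACTCA, the E-box CACGTG and the GC box GGGCGG. The windows are chr19:66872363-66872662 (minus strand) for Slc7a5, chr19:50993256-50993555 (plus strand) for Slc7a6, chr2:136668215-136668514 (minus strand) for Slc7a11 and chr10:60874588-60874887 (plus strand) for Slc43a2.
Slc7a5: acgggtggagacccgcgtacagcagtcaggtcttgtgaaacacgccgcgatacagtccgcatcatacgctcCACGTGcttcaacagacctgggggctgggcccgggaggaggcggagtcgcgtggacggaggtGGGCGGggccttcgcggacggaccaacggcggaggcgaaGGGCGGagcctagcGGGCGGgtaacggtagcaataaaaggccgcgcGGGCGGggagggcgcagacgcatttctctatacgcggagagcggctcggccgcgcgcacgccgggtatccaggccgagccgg
Slc7a6: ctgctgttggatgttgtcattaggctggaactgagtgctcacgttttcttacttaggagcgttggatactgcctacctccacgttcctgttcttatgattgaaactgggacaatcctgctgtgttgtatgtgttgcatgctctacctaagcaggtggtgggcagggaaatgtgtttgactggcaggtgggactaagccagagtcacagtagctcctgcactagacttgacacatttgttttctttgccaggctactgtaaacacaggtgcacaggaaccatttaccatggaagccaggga
Slc7a11: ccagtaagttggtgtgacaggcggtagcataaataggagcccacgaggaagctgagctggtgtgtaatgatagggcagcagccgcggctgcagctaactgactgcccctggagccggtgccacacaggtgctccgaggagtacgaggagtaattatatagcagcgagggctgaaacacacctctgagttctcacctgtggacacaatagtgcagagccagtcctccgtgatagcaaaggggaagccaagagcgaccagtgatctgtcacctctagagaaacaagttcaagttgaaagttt
Slc43a2: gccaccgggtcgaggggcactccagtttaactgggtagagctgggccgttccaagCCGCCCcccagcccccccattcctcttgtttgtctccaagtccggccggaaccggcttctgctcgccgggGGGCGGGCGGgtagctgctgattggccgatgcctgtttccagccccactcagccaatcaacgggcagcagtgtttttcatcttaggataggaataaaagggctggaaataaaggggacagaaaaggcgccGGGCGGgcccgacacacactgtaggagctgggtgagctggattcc
The Slc7a5 window held 1 E-box and 4 GC boxes, and the Slc43a2 window held 4 GC boxes, of which 2 overlap. None of the 5 motifs was in the windows of Slc7a6 and Slc7a11, which says only that these letters are not there. In the Slc7a6 window, the bases just before the start end in a pyrimidine-rich run and ag, as at a splice acceptor. That window may therefore lie inside the gene, and whether it holds the promoter used in colon was not tested. Of the other genes called in I-UI, windows not printed here held no motif (Slc1a3), 1 GC box each (Slc38a6 and Slc6a8) and 3 GC boxes (Slc6a3). Windows were at hand for 45 of the 60 genes, none of them Slc7a2, Slc7a3, Slc7a4 or Slc6a2. Among those 45, the E-box was in 8 windows (17.8%, against 6.65% of 27457 rat promoters), the GC box in 21 (46.7%, against 34.9%), the antioxidant response core in 8 (17.8%, against 12.2%), the AP-1 element in 4 (8.89%, against 4.53%) and the amino acid response core in 3 (6.67%, against 3.82%). The windows with the amino acid response core were those of Slc7a1, Slc1a4 and Slc38a1, and none of these 3 genes was called in I-UI.

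The light chains of Slc3a2 held 3 of the calls. Slc7a5 (LAT1) is the exchanger for leucine and other large neutral amino acids that feeds mTORC1. The level was lowest at 16.7, median 38.4 and highest at 62.9 CPM in inflamed libraries, against 7.32, 11.1 and 18.0 CPM in uninflamed libraries, and 7.69 and 5.64 CPM in controls. Inflamed and uninflamed libraries overlapped by a single inflamed sample, that of animal 221, but within animals the inflamed piece was the higher in 6 of 6 rats, and all inflamed libraries lay above both controls. In I-UI the log2 fold change was 1.71 (SE 0.29, edgeR adjusted p = 0.000998).

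Slc7a11 (xCT) takes up cystine in exchange for glutamate and so supplies cysteine for glutathione. It was lowest at 29.6, median 53.5 and highest at 98.6 CPM in inflamed libraries, against 7.30, 11.9 and 28.7 CPM in uninflamed libraries, and 9.89 and 12.2 CPM in controls. All inflamed libraries lay above all others, although the lowest inflamed sample (animal 221) and the highest uninflamed one (animal 220) nearly met. The log2 fold change was 2.08 (SE 0.36, edgeR adjusted p = 0.00103), and the ratio within an animal was between 0.84 and 3.05 on the log2 scale.

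Slc7a6 (y+LAT2) exchanges arginine and other cationic amino acids for neutral ones. Its level was lowest at 15.2, median 20.03 and highest at 23.3 CPM in inflamed libraries, against 6.84, 9.04 and 14.3 CPM in uninflamed libraries, and 6.24 and 6.43 CPM in controls. The 3 groups did not overlap, with the controls below every uninflamed library. The I-UI change on the log2 scale was 1.06 (SE 0.19, edgeR adjusted p = 0.0013), so close to the 2-fold limit that leaving out animal 218, 222 or 223 brought it to 0.93, 1.00 and 0.94, each just under that limit, with adjusted p between 0.00425 and 0.0106.

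Slc3a2, the heavy chain that all of these light chains need, was not called. The level was lowest at 21.4, median 29.5 and highest at 33.8 CPM in inflamed libraries, against 17.5, 21.3 and 26.4 CPM in uninflamed libraries, and 23.4 and 13.9 CPM in controls. The groups overlapped, and the log2 fold change was 0.37 (SE 0.17, edgeR adjusted p = 0.127), with the inflamed piece above its uninflamed partner in 5 of 6 rats. Whether the light chains differed from the heavy chain in their change was not tested.

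Another partner of Slc3a2, Slc7a7 (y+LAT1), the arginine exporter of epithelia and macrophages, had a log2 fold change of 0.56 (SE 0.22, edgeR adjusted p = 0.0759), with 19.2 to 31.3 CPM in inflamed libraries, 12.7 to 22.6 CPM in uninflamed libraries, and 14.02 and 34.23 CPM in controls. The 6 other light chains (Slc7a8, Slc7a9, Slc7a10, Slc7a12, Slc7a13 and Slc7a15) had log2 fold changes between 0.03 and 0.46 and passed the test in none, and neither did Slc3a1, the heavy chain of the cystine carrier of kidney and gut (log2 fold change -0.24).

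**Figure D2:**
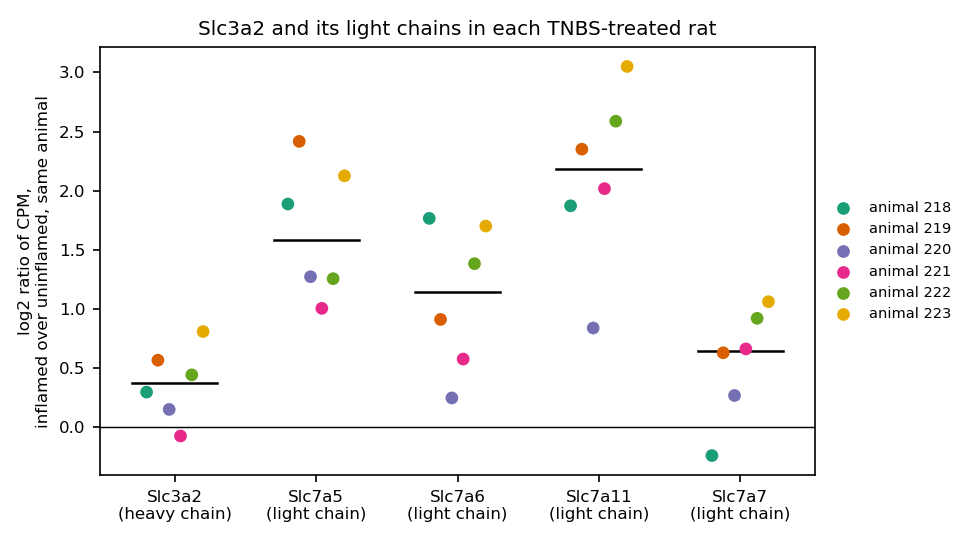
Log2 ratio of the CPM in the inflamed over the uninflamed piece of the same rat (vertical axis) for Slc3a2 and 4 light chains. Each point is a rat, coloured by animal, and the bar is the median. All 6 ratios are above 0 for Slc7a5, Slc7a6 and Slc7a11, and the medians are 0.37 for Slc3a2 and 2.18 for Slc7a11.

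Slc43a2 (LAT4), a facilitated carrier of branched-chain amino acids and phenylalanine, was higher without overlap. It was lowest at 30.4, median 41.4 and highest at 66.4 CPM in inflamed libraries, against 12.2, 20.2 and 23.6 CPM in uninflamed libraries, and 13.4 and 17.3 CPM in controls. Every inflamed library lay above every other library. In I-UI the log2 fold change was 1.21 (SE 0.22, edgeR adjusted p = 0.00142), against 0.17 for Slc43a1 (LAT3) and 0.46 for Slc43a3, a purine nucleobase carrier of the same family, neither of which was called.

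Slc7a2 (CAT2) brings arginine into cells, in macrophages as the substrate of nitric oxide synthase and arginase. Its level was lowest at 13.7, median 22.6 and highest at 95.8 CPM in inflamed libraries, against 4.31, 5.53 and 10.7 CPM in uninflamed libraries, and 4.42 and 9.05 CPM in controls. The inflamed libraries were all above the rest and differed from each other widely, with the highest in animal 219. The log2 fold change was 2.54 (SE 0.48, edgeR adjusted p = 0.00175).

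Among the other carriers of the cationic family, Slc7a1 (CAT1), the general arginine carrier, had a log2 fold change of 0.06 and Slc7a14 one of -0.30 (SE 0.27, edgeR adjusted p = 0.45). Slc7a4, a family member whose transport function is not settled, was lower. The level was lowest at 0.529, median 1.02 and highest at 4.71 CPM in inflamed libraries, against 2.55, 6.02 and 10.2 CPM in uninflamed libraries, and 3.84 and 1.84 CPM in controls. The inflamed library of animal 221 was the single one inside the uninflamed range, and the other 5 reached at most 1.19 CPM. The I-UI change on the log2 scale was -2.01 (SE 0.51, edgeR adjusted p = 0.0105), at levels of 5 to 124 reads per library.

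Slc1a3 (EAAT1 or GLAST), a sodium-driven glutamate and aspartate carrier known from glia, was the called gene of the Slc1 family. It was lowest at 15.8, median 26.5 and highest at 35.3 CPM in inflamed libraries, against 9.36, 11.1 and 13.4 CPM in uninflamed libraries, and 7.11 and 17.7 CPM in controls. Inflamed and uninflamed libraries did not overlap, while control animal 217 fell inside the inflamed range. In I-UI the log2 fold change was 1.21 (SE 0.24, edgeR adjusted p = 0.00201). Of 11 enteric neuron and glia markers tested, 0 were called in either direction. The summed level of all 12 listed was 88.0 to 156 CPM in inflamed libraries, 94.2 to 108 CPM in 5 uninflamed libraries, and 101 and 111 CPM in controls. The uninflamed library of animal 220 had 615 CPM, of which 553.9 CPM was Nos1, the neuronal nitric oxide synthase.

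Slc1a1 (EAAT3), the epithelial glutamate carrier, had 1897 to 4297 CPM in inflamed libraries, 1589 to 6518 CPM in uninflamed libraries, and 4535 and 5014 CPM in controls. Its reads were 55.7% (inflamed, animal 219) to 85.4% (uninflamed, animal 218) of the reads of the 60 genes, not scaled for gene length. Inflamed and uninflamed libraries overlapped, and the log2 fold change was -0.28 (SE 0.36, edgeR adjusted p = 0.596). All inflamed libraries lay below both controls, with a log2 fold change against the controls of -0.78 (SE 0.48, edgeR adjusted p = 0.301). The neutral carriers Slc1a5 (ASCT2, glutamine) and Slc1a4 (ASCT1, serine) were not called, with log2 fold changes of 0.12 (SE 0.27, adjusted p = 0.778) and -0.47 (SE 0.26, adjusted p = 0.203).

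**Figure D3:**
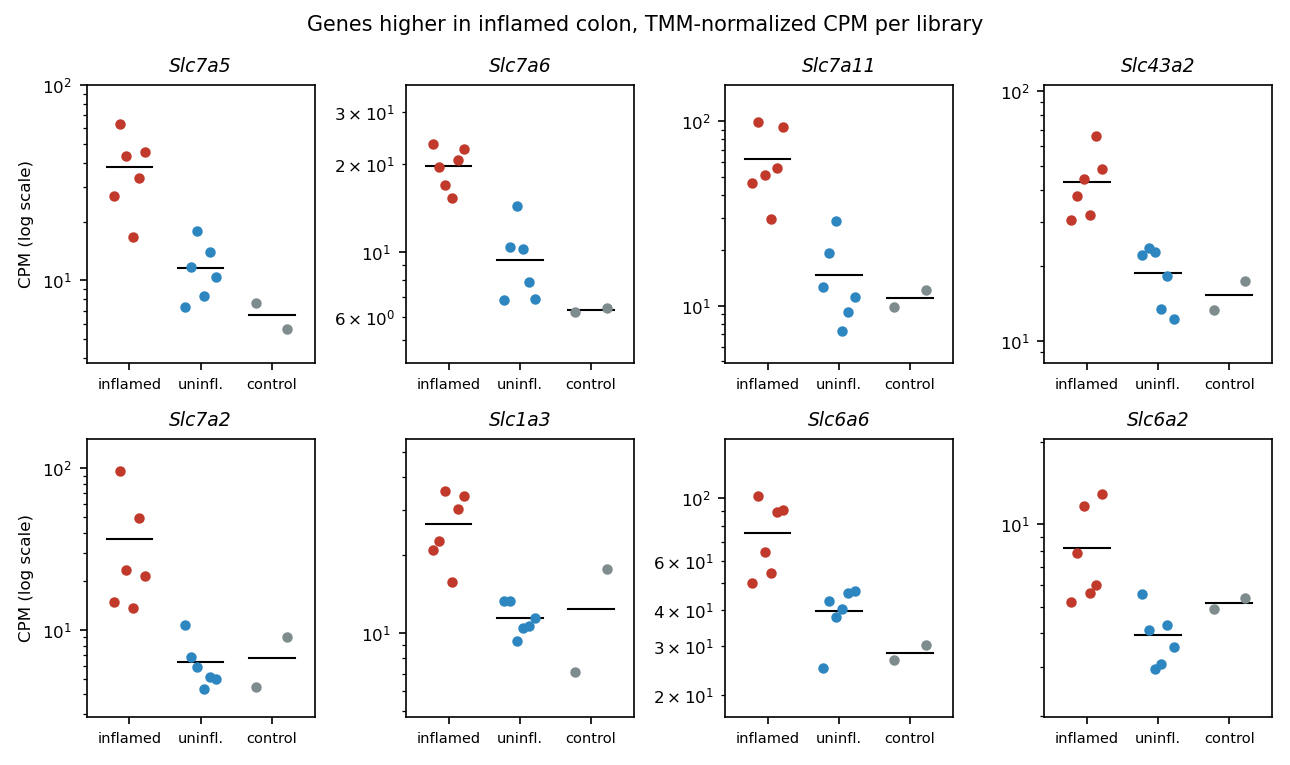
CPM per library (vertical axis, log scale) of 8 genes in inflamed, uninflamed and control colon, with the group mean as a bar. All inflamed points lie above all uninflamed points for Slc7a6, Slc7a11, Slc43a2, Slc7a2, Slc1a3 and Slc6a6, while Slc7a5 and Slc6a2 overlap.

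The taurine carrier Slc6a6, which also takes up beta-alanine, lay just under the 2-fold limit in I-UI. Its level was lowest at 49.8, median 77.04 and highest at 102 CPM in inflamed libraries, against 25.0, 41.8 and 46.7 CPM in uninflamed libraries, and 26.61 and 30.03 CPM in controls. The inflamed libraries lay above all others. The log2 fold change was 0.91 (SE 0.20, edgeR adjusted p = 0.00455). Slc6a2, the noradrenaline carrier of sympathetic nerve endings, lay just past that limit at 1.07 (SE 0.26, edgeR adjusted p = 0.007), with 5.19 to 12.9 CPM in inflamed libraries (median 6.93), 2.96 to 5.57 CPM in uninflamed libraries (median 3.84), and 4.90 and 5.38 CPM in controls. The groups overlapped, the inflamed piece was higher in 5 of 6 rats, and without animal 220 or 223 the change was 0.88 or 0.86, under that limit.

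Slc6a8, which takes creatine into cells for the phosphocreatine buffer, was lower. The level was lowest at 4.34, median 8.78 and highest at 21.7 CPM in inflamed libraries, against 17.5, 30.1 and 36.8 CPM in uninflamed libraries, and 73.5 and 54.0 CPM in controls. The inflamed piece was the lower in 6 of 6 rats, the inflamed library of animal 221 overlapped the uninflamed range, and both controls lay above every uninflamed library. The I-UI change on the log2 scale was -1.52 (SE 0.34, edgeR adjusted p = 0.0046). The test between uninflamed colon and controls gave -1.14 (SE 0.44, edgeR adjusted p = 0.457).

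Slc6a14 (ATB0,+), a broad carrier of neutral and cationic amino acids in colon epithelium, was not called, with a log2 fold change of -1.02 (SE 0.64, edgeR adjusted p = 0.269). The inflamed library of animal 221 had 89.1 CPM, and the other 5 inflamed libraries had 3.88 to 22.7 CPM, against 22.7 to 86.5 CPM in uninflamed libraries, and 56.2 and 37.2 CPM in controls. Without animal 221 the change was -2.25 (edgeR adjusted p = 0.00367). Slc6a8, Slc7a4 and Slc6a14 thus each had their highest inflamed level in animal 221, the library with the highest epithelial marker sum, and that same library had the lowest inflamed level of Slc7a2, Slc7a5, Slc7a6, Slc7a11 and Slc1a3. Among genes not called in I-UI, the epithelial carrier Slc1a1 (1897 CPM), Slc3a2, Slc38a9 and Slc38a10 also had their lowest inflamed level in animal 221. Slc1a4, Slc7a14 and Slc38a1 had their highest there, while Slc6a20, a carrier of gut and kidney, had its highest in animal 219 (8.79 CPM). For Slc43a2, Slc6a6, Slc6a2 and Slc38a6 the lowest inflamed library was that of animal 218, and Slc7a3 had its highest level in animal 221. The part of these cell types in the values was not tested.

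**Figure D4:**
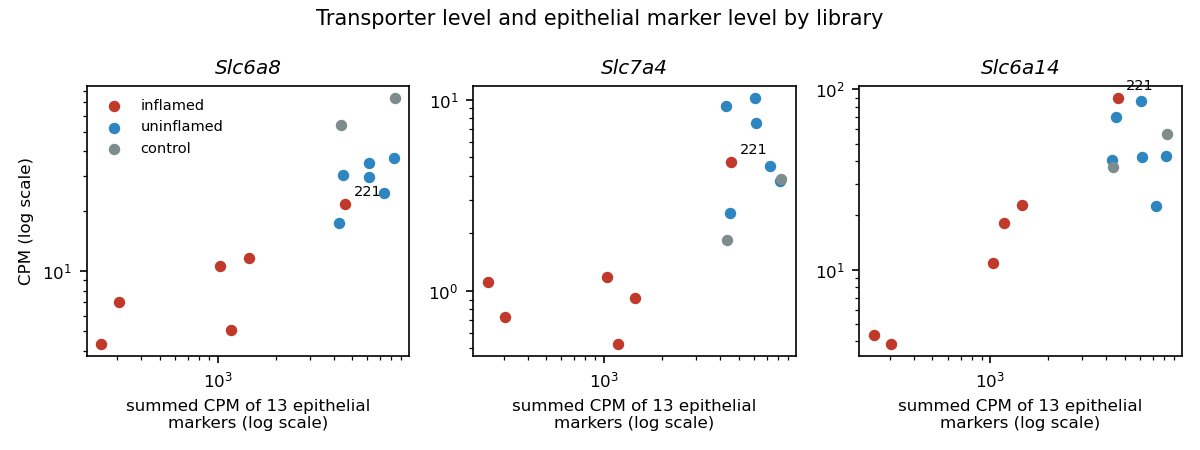
CPM of Slc6a8, Slc7a4 and Slc6a14 (vertical axis, log scale) against the summed CPM of 13 epithelial marker genes (horizontal axis, log scale), each point a library. The inflamed library of animal 221 is labelled, and its epithelial sum of 4596 CPM is the one inflamed value within the uninflamed range.

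Of the 9 other Slc6 amino acid carriers, 2 had an adjusted p under 0.05 below the 2-fold limit, singled out here after their values were seen. Slc6a20, the proline carrier of gut and kidney, had 3.28 to 8.79 CPM in inflamed libraries, 8.13 to 15.5 CPM in uninflamed libraries, and 9.80 and 12.5 CPM in controls. Its log2 fold change of -0.99 (SE 0.22, edgeR adjusted p = 0.00428) was -1.01 in the fit of the 12 inflamed and uninflamed libraries with the animal as a replicate block (adjusted p = 0.00841), which called it lower, and -0.98 in those 12 libraries without the block (adjusted p = 0.00624). Slc6a7, a proline carrier known from brain, had a log2 fold change of 0.95 (SE 0.29, adjusted p = 0.0273).

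In the sodium-coupled Slc38 family, Slc38a2 (SNAT2), the glutamine and alanine carrier that amino acid starvation induces in many cells, had 87.2 to 150 CPM in inflamed libraries, 79.9 to 140 CPM in uninflamed libraries, and 128 and 98.4 CPM in controls. In I-UI the log2 fold change was 0.00 (SE 0.18, edgeR adjusted p = 0.993). Slc38a1 (SNAT1) and Slc38a10 had log2 fold changes of -0.53 (SE 0.20, adjusted p = 0.0638) and 0.20 (SE 0.13, adjusted p = 0.296). Slc38a7, a lysosomal glutamine exporter, had 0.65 (SE 0.18, adjusted p = 0.0184), and in the proton-coupled family, Slc36a1 (PAT1), also lysosomal, had 0.57 (SE 0.19, adjusted p = 0.0367), both under the 2-fold limit. The other 3 Slc36 genes lay between 0.13 and 0.48. The 36 genes with no call and a mean under 20 CPM in each group held 0.493 to 23.8 CPM in single libraries, with log2 fold changes from -0.99 to 0.95.

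The calls of Slc6a3, Slc7a3 and Slc38a6 depended on single libraries. Slc6a3, the dopamine carrier, had 994 CPM in the inflamed library of animal 219 and 3.46 to 5.45 CPM in the other 5 inflamed libraries, against 2.38 to 5.09 CPM in uninflamed libraries, and 3.75 and 4.85 CPM in controls. Slc7a3 (CAT3), an arginine carrier known from brain, had 122.6 CPM in the inflamed library of animal 221 and 0.743 to 1.69 CPM in the other 5, against 0.324 to 0.959 CPM in uninflamed libraries, and 0.480 and 1.18 CPM in controls. The other inflamed libraries overlapped the uninflamed ones for both genes. Over all genes tested, 45 had 1 library of at least 20 CPM at 20 times or more the next, 8 of them in this library of animal 219 and 6 in that of animal 221. Whether these peaks came from the tissue or from the library was not tested.

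The log2 fold change of Slc6a3 was 5.44 (SE 1.57, edgeR adjusted p = 0.0212), and without animal 219 it was 0.29 (adjusted p = 0.405). In the replicate block fit it was 1.01 (adjusted p = 0.475), against 5.46 (adjusted p = 0.0246) in the same 12 libraries without the block. That of Slc7a3 was 4.71 (SE 1.43, edgeR adjusted p = 0.0267), and without animal 221 it was 0.36 (adjusted p = 0.558). Without animal 223 its adjusted p was 0.0504, and without the controls it did not pass the filter on low counts. In limma-voom, which weights the log values, the changes of Slc6a3 and Slc7a3 were 1.43 (adjusted p = 0.404) and 1.63 (adjusted p = 0.376).

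Slc38a6 (SNAT6) had 106.8 CPM in the inflamed library of animal 219 and 18.8 to 38.7 CPM in the other 5, against 14.7 to 21.8 CPM in uninflamed libraries, and 15.1 and 17.1 CPM in controls. Inflamed and uninflamed libraries overlapped through animal 218, and all inflamed libraries lay above both controls. The log2 fold change was 1.2 (SE 0.35, edgeR adjusted p = 0.022), 0.72 without animal 219 (adjusted p = 0.032), and 0.96 with the replicate block (adjusted p = 0.0436), the last 2 under the 2-fold limit. Without animal 222 or 223 the adjusted p was 0.0524 or 0.0756.

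**Figure D5:**
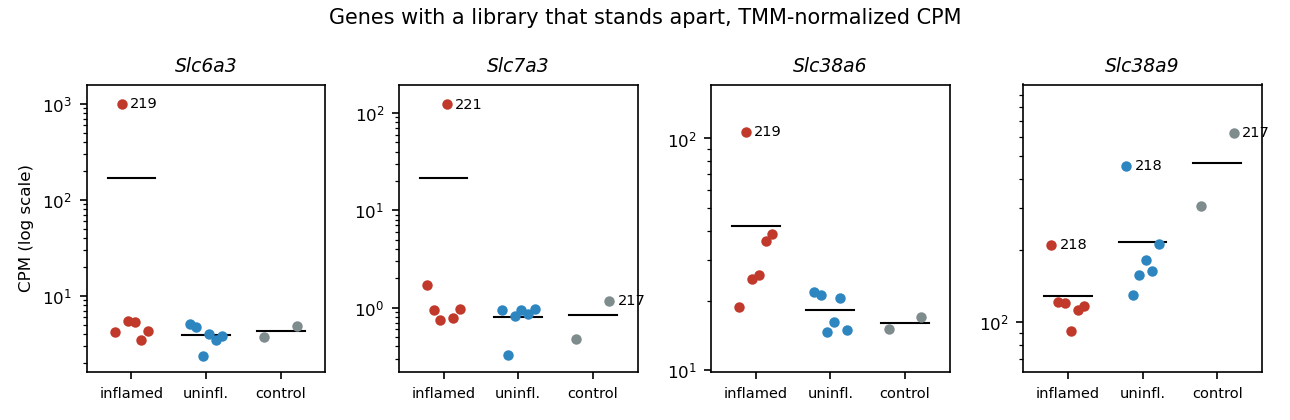
CPM per library (vertical axis, log scale) of Slc6a3, Slc7a3, Slc38a6 and Slc38a9 in inflamed, uninflamed and control colon, with the group mean as a bar. Numbers name the animal of a library more than 1.7 times the next in its group, such as 219 for Slc6a3 at 994 CPM.

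In inflamed colon against the controls (I-C), which share the inflamed libraries with I-UI, 7 of 60 genes were higher (11.7%, against 5.93% of all genes tested) and 2 were lower (3.33%, against 7.79%). Scaled by library size alone, the split was 19 higher and 2 lower, where 18% and 2.52% of all genes were. Without control 216, 2 genes were called higher (Slc7a5 and Slc7a6), where 1.72% of all genes were, and without control 217 also 2 (Slc7a6 and Slc1a3), where 1.28% were. The higher genes were Slc7a5 (log2 fold change 2.51, SE 0.48, edgeR adjusted p = 0.00356), Slc7a11 (2.50, SE 0.57, adjusted p = 0.00935), Slc7a2 (2.44, SE 0.74, adjusted p = 0.0367), Slc7a6 (1.63, SE 0.30, adjusted p = 0.00287), Slc43a2 (1.5, SE 0.34, adjusted p = 0.00877), Slc6a6 (1.41, SE 0.31, adjusted p = 0.00763) and Slc1a3 (1.10, SE 0.35, adjusted p = 0.0441). All but Slc1a3 had every inflamed library above both controls. Slc7a6 kept its call in all 16 alternatives run for I-C. Those of Slc7a2, Slc1a3, Slc43a2, Slc7a11 and Slc6a6 were lost without control 216, with adjusted p between 0.0916 (Slc6a6) and 0.442 (Slc1a3). Slc1a3 then had a log2 fold change of 0.58, and the other 4 had values between 1.33 and 2.35. The calls of Slc7a2, Slc43a2, Slc7a11, Slc7a5 and Slc6a6 were lost without control 217, with adjusted p between 0.0578 (Slc43a2) and 0.123 (Slc7a2) and log2 fold changes between 1.49 (Slc6a6) and 3.03 (Slc7a2). The I-C call of Slc7a2 was also lost without animal 220, 222 or 223 (adjusted p between 0.0509 and 0.0744), and that of Slc1a3 without animal 219, 220, 222 or 223 (adjusted p between 0.0609 and 0.0916). Fitted on the compared groups alone, both were lost (adjusted p = 0.115 and 0.122), and Slc7a2 also with no filter on low counts (adjusted p = 0.0528).

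Slc6a8 was lower in I-C at -2.66 (SE 0.42, edgeR adjusted p = 0.00146), and that call held in all 16 alternatives. Slc38a9, the lysosomal arginine sensor that links amino acids to mTORC1, had 91.9 to 211 CPM in inflamed libraries (median 118), 130 to 454 CPM in uninflamed libraries (median 173), and 306 and 623 CPM in controls. The inflamed libraries all lay below both controls, and the inflamed and uninflamed libraries of animal 218 were the highest of their groups. Control 217 and the uninflamed library of animal 218, with the highest levels of Slc38a9, also had the lowest TMM factors (0.633 and 0.630). The part of the scaling in these levels was not tested. The log2 fold change was -1.85 (SE 0.41, edgeR adjusted p = 0.00743) in I-C, and -0.75 (SE 0.32, adjusted p = 0.0947) in I-UI. Without control 217 the I-C value was -1.26 (adjusted p = 0.169). Slc38a1 had -0.87 (SE 0.27, adjusted p = 0.0354) in I-C and the light chain Slc7a8 had 0.83 (SE 0.27, adjusted p = 0.0465), both under the 2-fold limit. Without animal 221, 4 of the 60 genes were lower in I-C, where 9.62% of all genes were, the 2 added being Slc6a14 at -1.98 (adjusted p = 0.0252) and Slc7a4 at -1.71 (adjusted p = 0.0331). With all libraries, Slc6a14 had -0.90 (SE 0.86, edgeR adjusted p = 0.526) and Slc7a4 had -0.87 (SE 0.71, edgeR adjusted p = 0.448) in I-C, and neither was called.

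In uninflamed colon against the controls (UI-C), which shares both controls with I-C, 0 of 60 genes were higher and 0 were lower, where 0% and 0.145% of all genes tested were. By edgeR, 5 of 60 had an unadjusted p under 0.05 (8.33%, against 8.89% of all genes), and DESeq2, limma-voom and edgeR's exact test also called 0. Without animal 218, where 0.806% of all genes were lower, Slc38a9 was called lower at -1.46 (adjusted p = 0.042), against -1.10 (SE 0.42, adjusted p = 0.449) with all libraries. Slc7a5 had 0.80 (SE 0.44, adjusted p = 0.639) and Slc7a6 had 0.57 (SE 0.29, adjusted p = 0.594). Slc7a4, lower in I-UI, had 1.14 in UI-C (SE 0.74, edgeR adjusted p = 0.709).

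Genes that act with these carriers were read from lists of the amino acid response, mTORC1 sensing, glutathione, glutamine metabolism, trafficking partners and other carriers. Their counts in I-UI stand beside the 6.15% of all genes that were higher and the 6.95% that were lower, and a list with 1 call in a direction is near that background. Of 18 genes of the amino acid response driven by ATF4, 5 were higher in I-UI and 0 lower, with a median log2 fold change of 0.71. They were Cebpb (2.78, SE 0.35, edgeR adjusted p = 0.000167) and Ddit3 (2.67, SE 0.45, adjusted p = 0.00101), both transcription factors of the C/EBP family, Ddit4 (1.63, SE 0.24, adjusted p = 0.000416), an inhibitor of mTORC1, Eif4ebp1 (1.04, SE 0.21, adjusted p = 0.00282), a repressor of translation that mTORC1 holds in check, and Mthfd2 (1.03, SE 0.28, adjusted p = 0.0138), an enzyme of mitochondrial folate metabolism. Under the 2-fold limit, Vldlr, a lipoprotein receptor, had -0.88 (SE 0.18, adjusted p = 0.00243) and Eif2ak4 had -0.54 (SE 0.15, adjusted p = 0.0169). In the other direction under that limit were Shmt2 (0.98, SE 0.27, adjusted p = 0.0143), Sesn2 (0.71, SE 0.19, adjusted p = 0.0147) and Psat1 (0.70, SE 0.24, adjusted p = 0.0439). Asns, the asparagine synthetase, had 0.50 (SE 0.23, adjusted p = 0.116). The transcript of Atf4 itself had -0.17 (SE 0.17, adjusted p = 0.478), and its protein was not measured. Mthfd2, Eif4ebp1, Eif2ak4, Shmt2, Sesn2, Psat1, Asns and Atf4 were singled out after their values were seen.

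Of 14 genes of glutathione synthesis and the Nrf2 response, the pathway that the cystine carrier Slc7a11 serves, 4 were higher and 2 lower in I-UI, with a median of -0.41. Hmox1, which degrades haem, had 54.7 to 363 CPM in inflamed libraries, 7.56 to 18.5 CPM in uninflamed libraries, and 6.63 and 5.11 CPM in controls, a log2 fold change of 4.03 (SE 0.41, edgeR adjusted p = 4.3e-05). Srxn1, a sulfiredoxin, had 2.13 (SE 0.41, adjusted p = 0.00198). The lower genes were Gclm, a subunit of the enzyme that makes the first step of glutathione from cysteine, at -1.31 (SE 0.22, adjusted p = 0.000927), and Gsr, which recycles glutathione, at -1.0 (SE 0.20, adjusted p = 0.00235). The other higher genes, named after their values were seen, were Nqo1 (1.66, SE 0.36, adjusted p = 0.00425), a quinone reductase, and Ggt1 (1.40, SE 0.34, adjusted p = 0.00739), which breaks down glutathione outside the cell.

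Of 24 genes of amino acid sensing by mTORC1, 0 were called in I-UI in either direction (median 0.04). Depdc5, of the GATOR1 complex that restrains mTORC1, had the smallest adjusted p of them, with 0.69 (SE 0.13, edgeR adjusted p = 0.002), under the 2-fold limit. Of 16 genes of glutamine and glutamate metabolism, 0 were higher and 1 was lower, Gpt (alanine aminotransferase), at -2.66 (SE 0.61, adjusted p = 0.006).

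Of 7 trafficking partners, 1 was higher and 1 lower. Sgk1, a kinase that keeps several of these carriers at the membrane, had 14.1 to 39.8 CPM in inflamed libraries, 69.1 to 260 CPM in uninflamed libraries, and 215 and 317 CPM in controls. All inflamed libraries lay below all others, with a log2 fold change of -2.10 (SE 0.36, edgeR adjusted p = 0.00103). Tmem27 (collectrin), the partner of the Slc6 amino acid carriers in kidney, had 1.44 (SE 0.37, adjusted p = 0.00982) at means of 6.52 CPM in inflamed and 2.41 CPM in uninflamed colon.

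Of 12 amino acid and peptide carriers outside the families counted here, 2 were higher and 0 lower. Slc15a3, an endolysosomal histidine and peptide carrier of macrophages and other immune cells, had 2.75 (SE 0.48, edgeR adjusted p = 0.00114), at means of 30.9 CPM in inflamed, 4.53 CPM in uninflamed and 3.43 CPM in control colon. Slc32a1, the vesicular GABA and glycine carrier, had 1.45 (SE 0.44, adjusted p = 0.0242) at a mean of 1.08 CPM in inflamed and 0.398 CPM in uninflamed colon. Slc16a10 (TAT1), the aromatic amino acid carrier, had 0.68 (SE 0.16, adjusted p = 0.00606), under the 2-fold limit. The summed level of 10 macrophage markers was 428 to 793 CPM in inflamed libraries, 310 to 534 CPM in uninflamed libraries, and 296 and 242 CPM in controls, and 1 of 10 was higher in I-UI. Its part in the level of Slc15a3, Slc7a2 or Slc7a7 was not tested.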

How the data were processed

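Gene expression was measured by RNA-Seq in 14 rat colon samples. The deposited values are whole-number read counts per gene, which the authors made from SOLiD reads, after removing ribosomal RNA reads, by mapping to the rat genome build Rnor_5.0 with CLC Genomics Workbench. Reads that fit several places could be shared among near-identical genes. The submitters' processing notes name edgeR. Groups came from the samples' group labels and animals from their titles.

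All 14 libraries and 3 groups were fitted together in edgeR 4.0.16 (R 4.3.3): TMM normalisation, filterByExpr with a minimum count of 10, robust quasi-likelihood test, prior count of 0.125, Benjamini-Hochberg adjustment over 18678 genes. The standard error is the size of the log2 fold change estimated without the prior count, divided by the square root of the F statistic. The procedure was also run on simulated counts that held no animal pairing and no single-library peaks, and no result here rests on that run. A depth of 6734968 to 13792657 reads puts 3 reads between 0.182 and 0.478 CPM, which covers counting error only. No pair of libraries was identical (0 pairs).

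Inflamed and uninflamed samples with the same number come from the same rat, so the 12 libraries of these rats were also fitted alone, with the animal as a replicate block and without it. Deviations of the same rat's libraries from their group means correlated between -0.116 and 0.209. For inflamed and uninflamed libraries of different rats the range was -0.157 to 0.227, which takes in that of the same rats.

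Genes described singly were those called in at least 1 comparison or with a group mean of at least 20 CPM, and, of other lists, up to 4 of those lowest by adjusted p in the inflamed against uninflamed test. The transporter genes and the lists were chosen with earlier results of these data known. Of 253 listed symbols, 240 matched the table by name and 5 by a RefSeq synonym. Alternatives were RLE size factors, library size alone, no filter, a minimum count of 30, edgeR's exact test, DESeq2 1.42.0, limma-voom (limma 3.58.1), the compared groups alone and leaving out each animal. Promoter windows are sequences of GRCr8 around the first listed RefSeq start, 1 window a gene, and no start was checked against the reads. Gene lengths of the files' build were not used here, so levels are not compared between genes. Of the 60 transporter genes, 1 without a call enters the counts and ranges but is left out of the plot of fold changes and not reported here.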

Additional observations from a re-analysis of the deposited data

Results flagged for a closer look

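Single libraries stood apart from the other 5 of their group in 9 of the 48 group values examined (24 genes in inflamed and in uninflamed colon). The rule flags about 1 in 20 values by chance if they are normally distributed, which was not checked for these CPM. The genes were also partly chosen for high levels or calls. Slc6a3 and Slc7a3 were among them through the library that stood apart, so the count of 9 is not set against that rate. In the inflamed library of animal 219, Slc6a3 had 994 CPM (others 3.46 to 5.45) and Slc38a6 had 106.8 CPM (others 18.8 to 38.7). In that of animal 221, Slc7a3 had 122.6 CPM (others 0.743 to 1.69), Slc6a14 had 89.12 CPM (others 3.88 to 22.7) and Slc7a4 had 4.712 CPM (others 0.529 to 1.19). In that of animal 218, Slc38a9 had 211.1 CPM (others 91.9 to 121) and Slc1a5 had 28.57 CPM (others 18.8 to 20.6). In uninflamed colon, Slc38a9 had 454.3 CPM in animal 218 (others 130 to 213) and Slc7a3 had 0.3239 CPM in animal 219 (others 0.821 to 0.959). The 0.3239 CPM of Slc7a3 rests on 3 reads.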

How the results depend on the processing

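No named gene changed the direction of a call under any alternative run. Slc7a11, Slc7a5, Slc7a2, Slc43a2, Slc1a3, Slc6a8 and Slc7a4 kept their I-UI call in all 17 alternatives, and Slc7a6 and Slc6a8 kept their I-C call in all 16. Scaling by library size alone moved the median log2 fold change of all genes to 0.28 in I-UI, 0.72 in I-C and 0.43 in UI-C (0.04, 0.10 and 0.05 with TMM), and the count of transporter genes higher in I-C to 19 (18% of all genes). Over all genes, that scaling gave 3367 higher and 470 lower in I-C, against 1107 and 1455 with TMM, and 1831 and 765 in I-UI, against 1148 and 1298. In UI-C over all genes, 0 were higher and 27 lower in edgeR's quasi-likelihood test, 39 and 112 in DESeq2, 12 and 113 in edgeR's exact test and 0 and 6 in limma-voom, and in I-C 334 and 762 without control 216 and 248 and 672 without control 217. Leaving out each animal in turn gave 6 to 10 transporter genes higher in I-UI (6 without animal 223, where 4.51% of all genes were), 2 to 7 higher in I-C (2 without control 216 or 217, where 1.72% and 1.28% of all genes were), 1 to 4 lower in I-C (1 without control 217 and 4 without animal 221, where 3.46% and 9.62% were) and 0 to 1 lower in UI-C (1 without animal 218, where 0.806% were). In the 12 inflamed and uninflamed libraries alone, the I-UI counts were 9 up and 2 down (6.1% and 7.13% of all genes), the call lost being Slc7a3, which did not pass the filter there. With the animal as a replicate block in those 12 libraries, they were 7 up and 3 down (5.3% and 7.31%), and the block changed the calls of Slc6a3, Slc38a6 and Slc6a20 and no other. The cause of these changes was not tested. Leaving out a control changes both the number of controls and which library is compared, and these cannot be told apart here.

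With 2 controls, I-C and UI-C rest on few samples, and genes of a few reads per library, such as Slc7a3 and Slc7a4, are limited by depth. Each library mixes many cell types, and markers of several cell types, such as epithelium and neutrophils, differed in I-UI and I-C.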
